A study of Mus musculus with 11 samples.

Results

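The comparison described here sets mouse embryonic fibroblasts that overexpress a mutant METTL1 together with WDR4 against fibroblasts with empty vector, and asks how relative tRNA abundance differed between them. METTL1 is the methyltransferase of a complex in which WDR4 is the partner subunit. Some tRNAs receive N7-methylguanosine (m7G) in their variable loop from this complex, and the modification is known to protect them from decay. Each tRNA carries an anticodon that reads codons of an mRNA, and tRNAs that carry the same amino acid with different anticodons are called isoacceptors.

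All 4 input libraries of these groups were used, of 11 libraries in the series, 2 from cells with METTL1-Mut and WDR4 and 2 from cells with empty vector. The cells of both groups are labelled wild type, carry SV40 T antigen and were grown without a stated removal of their own METTL1 or WDR4. The protocols describe stably transduced lines and puromycin and G418 selection for the wild-type construct and empty vector only, and the labels name neither the change in the mutant METTL1 nor a separate culture for each replicate. The p-values therefore set a difference between groups only against the spread between libraries of a group, which may be technical. Input libraries were made from small RNA treated with AlkB enzymes, which remove other methylations, and without the cleavage step that reports m7G. Levels of METTL1 and WDR4 themselves were not analysed here.

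The members were all 301 tRNA entries of the abundance table, whose names join an amino acid, an anticodon and a running number. They were taken singly, as sums over 54 anticodons, and as sums over 22 amino acid names, which include selenocysteine (SeC) and a suppressor-type entry (Sup). Values are RPM, reads per 1000000 reads over tRNA entries, so each is a share of the tRNA reads and says nothing of how much tRNA a cell held in all. The RPM steps imply 13634835 reads for mutant library 1 and 10032452 for mutant library 2, against 16003708 for empty vector library 1 and 5405585 for empty vector library 2. Of the 243 entries averaging 10 RPM or more, 92 formed 38 groups of near-identical entries, whose values differed by no more than 5% in any of the 4 libraries and which may hold the same reads. In 16 of these groups the entries carried different anticodons, and in 6 different amino acid names, such as LysCTT8 with GluCTC48, so sums over anticodons or amino acids may hold some reads more than once.

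The mutant libraries differed more from each other than the mutant mean differed from the empty vector mean. These distances are not alike, since a mean of 2 libraries evens out part of the difference between them. To make mutant libraries 1 and 2 alike, 8.57% of all RPM would have to sit in other entries, whereas the same measure was 5.48% between the mutant and empty vector means and 3.43% between the empty vector libraries. Mutant library 2 lay farther from the empty vector mean, at 8.42%, than mutant library 1, at 4.39%. The median absolute gap between the libraries of a group was 0.21 on the log2(RPM + 1) scale for the mutant, 0.08 for wild-type METTL1 and 0.11 for empty vector.

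The gap between the mutant libraries is described here for 4 amino acids. Alanine tRNAs, the largest class, took 322048 RPM in mutant library 1 and 267004 RPM in mutant library 2, against 310002 and 315495 RPM in empty vector. Leucine tRNAs took 115213 and 148139 RPM in the mutant libraries, against 120556 and 114495 RPM in empty vector. Mutant library 1 was thus close to the empty vector values in both classes, and mutant library 2 held less alanine and more leucine tRNA. Glutamine tRNAs stood at 108328 and 131184 RPM in the mutant libraries, against 111965 and 108390 RPM in empty vector. Tryptophan tRNAs moved the other way, with 24774 and 18648 RPM in the mutant libraries, against 21258 and 22070 RPM in empty vector, so the mutant values lay on both sides of the empty vector values. None of these 4 amino acids passed the test below.

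By anticodon the largest gaps of mutant library 2 from mutant library 1 were those of ArgTCT (−0.49 on the log2 scale), LeuCAA (0.42), TrpCCA (−0.41), LeuCAG (0.39) and SerCGA (0.39). The same gaps in the empty vector pair were 0.18, −0.07, 0.05, −0.08 and −0.08. Of the 197 entries averaging 100 RPM or more, 3 had a gap over 0.5 in the mutant pair and 2 in the empty vector pair. The 3 were ArgTCT31 (−0.57), SerCGA4 (0.52) and ArgTCT65 (−0.51), and the next 7 were MetCAT6 (−0.48), MetCAT27 (−0.47), PheGAA11 (0.47), ArgTCT126 (−0.46), MetCAT10 (−0.45), LeuTAA1 (0.44) and GluTTC28 (−0.44).

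**Figure D1:**
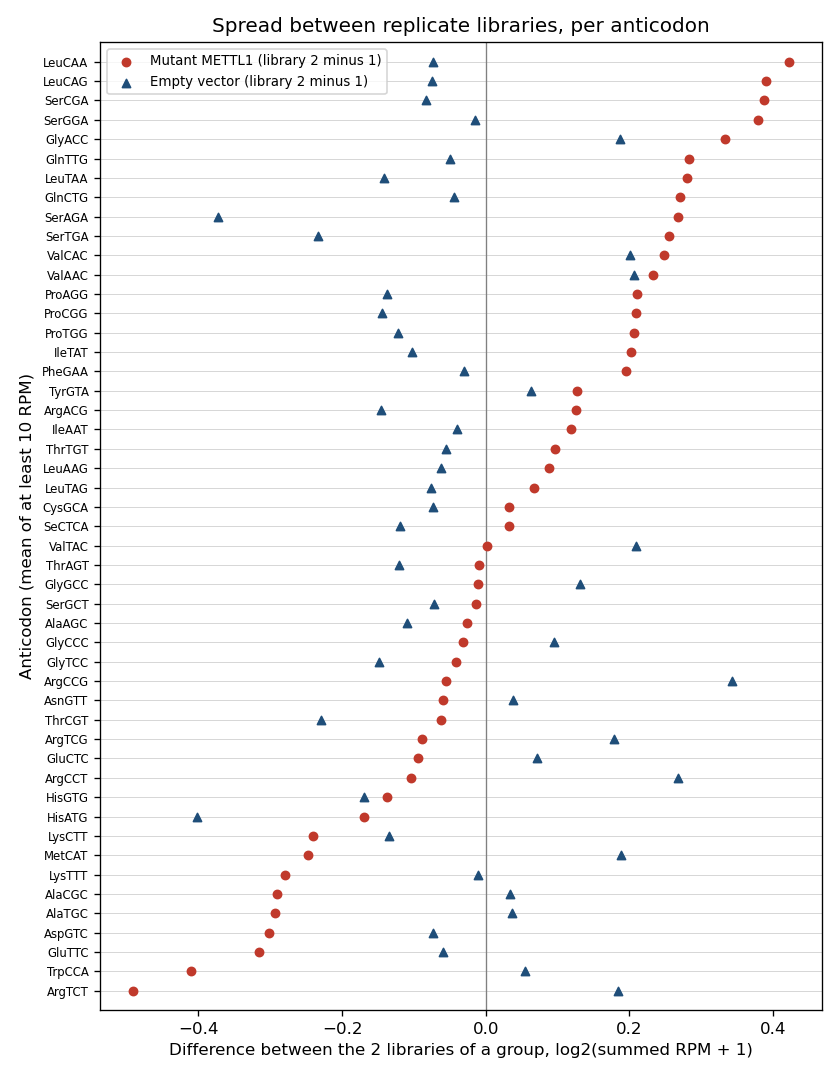
Difference between the 2 libraries of a group (library 2 minus library 1, log2 of summed RPM plus 1) for the 49 anticodons with a mean of at least 10 RPM; circles are the mutant METTL1 pair and triangles the empty vector pair. Mutant gaps run from −0.49 for ArgTCT to 0.42 for LeuCAA.

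Summed per amino acid, aspartate and selenocysteine tRNAs rose and histidine tRNAs fell in mutant cells. Aspartate tRNAs, all with the anticodon GTC, had 11695 and 9484 RPM in the mutant libraries, against 7314 and 6954 RPM in empty vector. Both mutant values lay above both empty vector values, although the mutant libraries stood farther apart than the empty vector libraries. The log2 fold change was 0.56 (SE 0.12, limma adjusted p = 0.00043, with Benjamini-Hochberg adjustment over the 22 sums, as for all adjusted p-values here over the features of their level).

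The selenocysteine tRNA, which inserts selenocysteine at recoded UGA codons, is a single entry and had 24.6 and 25.2 RPM in the mutant libraries, against 17.4 and 15.9 RPM in empty vector. The mutant libraries nearly coincided here (log2 fold change 0.56, SE 0.12, limma adjusted p = 0.00043). Tested among the 301 entries, the same values of SeCTCA2 did not pass (SE 0.20, limma adjusted p = 0.055). Histidine tRNAs had 17805 and 16188 RPM in the mutant libraries, against 24515 and 21798 RPM in empty vector, so that both mutant values lay below both empty vector values. The log2 fold change was −0.45 (SE 0.12, limma adjusted p = 0.0050).

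In all, 2 of 22 amino acid sums rose (9.09%) and 1 fell (4.55%), which makes 3 called (13.6%), and 5 had an unadjusted limma p under 0.05 (22.7%). In 4 sums both mutant values lay above both empty vector values (18.2%) and in 4 below them (18.2%). Among sums that did not pass, proline stood at a log2 fold change of 0.25 (limma adjusted p = 0.21), asparagine at −0.29 (limma adjusted p = 0.12) and threonine at −0.21 (limma adjusted p = 0.35). Without mutant library 1 proline stood at 0.35 and asparagine at −0.32, in fits where the empty vector pair alone gave the spread. Alanine, with the widest gap in RPM between mutant libraries, stood at −0.09, with a 95% interval of −0.34 to 0.15.

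The SE of 0.12 was the same for every sum, because limma gave all of them a common spread. With 2 libraries per group it did not detect a difference in spread between sums, which does not show the spreads to be equal. The gap of mutant library 2 from mutant library 1 was −0.0029 for threonine and −0.41 for tryptophan on the log2 scale. Without mutant library 1 or 2 aspartate stood at 0.41 or 0.71, selenocysteine at 0.57 or 0.54 and histidine at −0.51 or −0.38. In those fits the empty vector pair alone gave the spread. Without empty vector library 1 or 2 they stood at 0.60 or 0.53, 0.62 or 0.50 and −0.36 or −0.53, and the mutant pair alone gave the spread. The 3 calls were lost there. Centring each library on its median sum also ended them (limma adjusted p 0.066, 0.11 and 0.19), as did testing each sum on its own spread (limma adjusted p 0.35, 0.16 and 0.35).

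**Figure D2:**
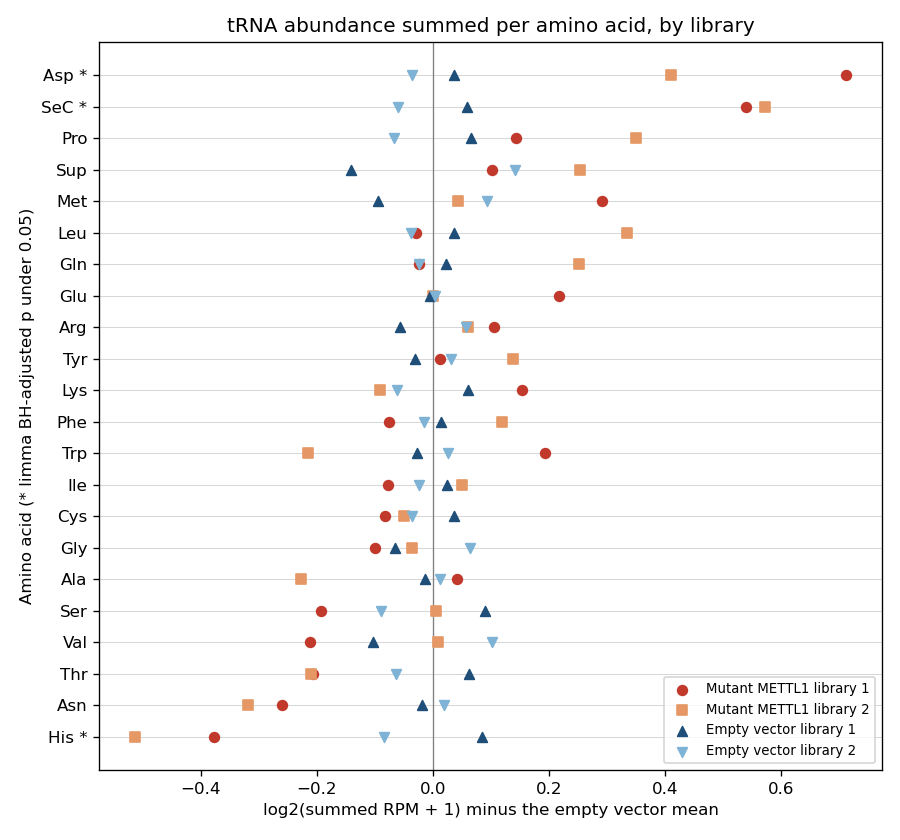
log2 of summed RPM plus 1, minus the empty vector mean, for 22 amino acid names in each of the 4 libraries; asterisks mark a limma adjusted p under 0.05. Both mutant libraries lie to the right of both empty vector libraries for Asp and SeC and to the left for His, while for Ala and Trp the mutant libraries lie on both sides of the empty vector libraries.

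Summed per anticodon, 2 of 54 rose (3.70%) and 0 fell, with 7 at an unadjusted limma p under 0.05 (13.0%), 4 of them higher and 3 lower. The 2 were AspGTC and SeCTCA, the same sums as before, now at a limma adjusted p of 0.018 each, since the common SE was 0.16 over anticodons. Both mutant values lay above both empty vector values in 11 sums (20.4%) and below them in 13 (24.1%). The AspGTC call was lost without mutant library 1 (0.41, limma adjusted p = 0.33) and without empty vector library 1 or 2 (limma adjusted p 0.074 and 0.11). The SeCTCA call was lost without any of the 4 libraries in turn (limma adjusted p 0.074 to 0.30), and both calls with centring on the median anticodon (limma adjusted p 0.094 each), with a pseudocount of 10 (limma adjusted p 0.13 each) and on their own spread (limma adjusted p 0.43 and 0.26). With a pseudocount of 0.1 the AspGTC call was lost (limma adjusted p = 0.063) and AlaGGC, under 1 RPM in every library, passed (1.80, limma adjusted p = 0.00073).

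Other large differences by anticodon did not pass. HisGTG had 17774 and 16160 RPM in the mutant libraries, against 24473 and 21767 RPM in empty vector (log2 fold change −0.45, SE 0.16, limma adjusted p = 0.11 over 54 anticodons). As fitted here, the histidine difference thus passed among 22 sums and not among 54. Among 54 it passed with a variance trend (limma adjusted p = 0.032) and in a common fit with the wild-type METTL1 libraries (limma adjusted p = 0.031). HisATG (−0.33, at 36.9 RPM in empty vector), CysACA (−0.33, at 1.30 RPM), ThrAGT (−0.31) and AsnGTT (−0.29) followed on the lower side, and AlaGGC (0.38, under 1 RPM in every library), GluTTC (0.33) and ArgCCT (0.29) on the higher side.

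Measured in RPM rather than as a ratio, the largest gains of the mutant mean over the empty vector mean were those of LeuCAA (11933 RPM), ArgCCT (6293), GlnTTG (5208), GlnCTG (4371) and LeuCAG (4286). Except for ArgCCT these gains rest on mutant library 2, and the mutant and empty vector values overlapped. LeuCAA, for instance, had 69116 and 92622 RPM in the mutant libraries, against 70682 and 67191 RPM in empty vector. The largest losses were those of AlaTGC (−10751 RPM), AlaCGC (−10247), ThrAGT (−7270), HisGTG (−6152) and SerGCT (−2205). Mutant and empty vector values overlapped for AlaTGC and AlaCGC, and lay apart for ThrAGT, HisGTG and SerGCT. None of these 10 anticodons passed the test. Near-identical entries joined LeuCAA with LeuCAG, GlnTTG with GlnCTG and AlaTGC with AlaCGC, so that these gains and losses may repeat the same reads. SerGCT7906 was near-identical to AsnGTT475, the most abundant asparagine entry, so the SerGCT and asparagine differences may also share reads.

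Isoacceptors of one amino acid did not always lie on the same side. Of the glutamate reads, GluTTC took 58.0% and 54.2% in the mutant libraries, against 49.2% and 47.0% in empty vector, and GluCTC the remainder. Of the threonine reads, ThrAGT took 76.0% and 75.6% in the mutant libraries, against 81.1% and 81.3% in empty vector. ArgCCT, which reads the arginine codon AGG, took 41.4% and 39.7% of arginine reads in the mutant libraries, against 33.3% and 37.0% in empty vector. The groups did not overlap in these 3 anticodons, and they did not in others either. ThrTGT took 12.1% and 12.9% of threonine reads in the mutant libraries, against 9.22% and 9.68% in empty vector. AlaAGC took 7.53% and 8.92% of alanine reads, against 7.12% and 6.48%. LeuTAA took 2.18% and 2.05% of leucine reads, against 2.46% and 2.35%. How often such shares lay apart was not counted over all anticodons. The ArgTCT share of arginine reads overlapped, at 6.45% and 4.73% in the mutant libraries, against 4.80% and 5.04% in empty vector. With 2 libraries each no exact permutation test can give a p below 0.33.

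Among single entries, 22 of 301 rose in mutant cells (7.31%) and 3 fell (0.997%), which makes 25 called (8.31%), and 48 had an unadjusted limma p under 0.05 (15.9%). Those 22 belonged to 12 anticodons of 9 amino acids. They made 20 features once near-identical entries were joined, so some calls may repeat the same reads. Of the 22, 17 had a mean under 1000 RPM, as did 167 of all 301 entries. In all 22 both mutant values lay above both empty vector values, which was so for 97 of all 301 entries (32.2%). Both mutant values lay below both empty vector values in 48 entries (15.9%).

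ArgTCT81, with the anticodon for the arginine codon AGA, rose most. It had 95.9 and 71.2 RPM in the mutant libraries, against 15.1 and 23.9 RPM in empty vector, from 1308 and 714 reads against 242 and 129 reads. The lowest mutant value was thus well above the highest empty vector value (log2 fold change 2.06, SE 0.18, limma adjusted p = 4.2e-25). MetCAT22, a methionine entry, had 529 and 427 RPM in the mutant libraries, against 145 and 188 RPM in empty vector (log2 fold change 1.52, SE 0.14, limma adjusted p = 8.6e-22). Entry names do not tell initiator from elongator methionine tRNA.

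Both entries were small parts of their anticodon. ArgTCT81 made up 1.71% and 1.78% of ArgTCT reads in the mutant libraries, against 0.404% and 0.562% in empty vector. MetCAT22 made up 2.31% and 2.22% of MetCAT reads in the mutant libraries, against 0.828% and 0.940% in empty vector. Within the anticodon the mutant libraries lay closer together than in RPM, and apart from empty vector. The MetCAT sum did not pass, with 22870 and 19269 RPM in the mutant libraries, against 17513 and 19950 RPM in empty vector (log2 fold change 0.17, limma adjusted p = 0.61).

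The ArgTCT sum had 5627 and 4003 RPM in the mutant libraries, against 3740 and 4249 RPM in empty vector, and did not pass (log2 fold change 0.25, 95% interval −0.06 to 0.57, limma adjusted p = 0.45). All 6 ArgTCT entries were lower in mutant library 2 than in mutant library 1. ArgTCT31 rose, with 579 and 391 RPM in the mutant libraries, against 300 and 368 RPM in empty vector (log2 fold change 0.52, limma adjusted p = 0.0071). Its call did not hold without mutant library 1 (0.23, limma adjusted p = 0.35) or empty vector library 1 (0.37, limma adjusted p = 0.47). The most abundant of them, ArgTCT65, had 2625 and 1839 RPM in the mutant libraries, against 1725 and 1961 RPM in empty vector, and did not pass. Without mutant library 2 it stood at 0.51, in a fit where the empty vector pair alone gave the spread. The log2 fold changes of ArgTCT51, ArgTCT57 and ArgTCT126 were 0.38, 0.23 and 0.09, and none passed. The RefSeq annotation of GRCm38.p6 lists 5 Arg-TCT genes, at chr1:173390329-173390402, chr3:122292948-122293032, chr11:69123482-69123568, chr13:21917162-21917247 and chr19:12011588-12011673. The table entries were not tied to single genes.

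**Figure D3:**
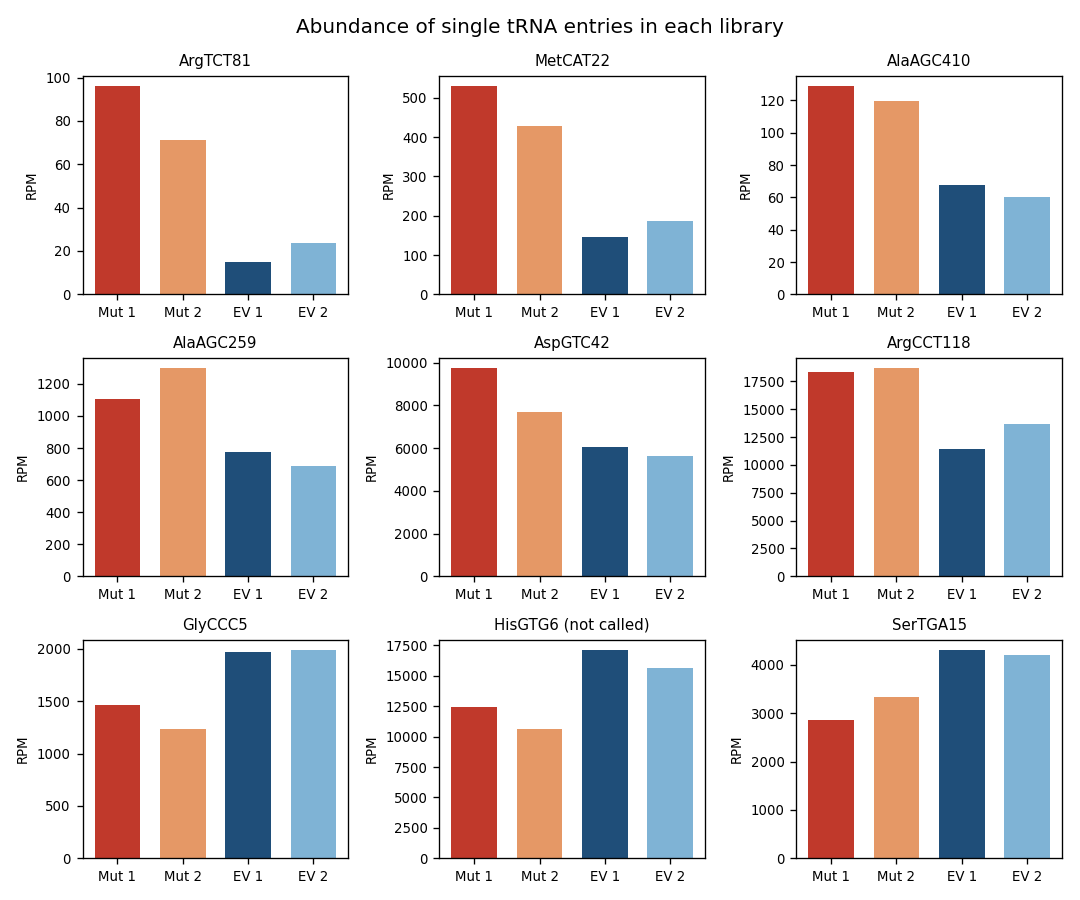
RPM of 9 tRNA entries in mutant METTL1 libraries 1 and 2 (Mut 1, Mut 2) and empty vector libraries 1 and 2 (EV 1, EV 2), each panel on its own scale from 0. In all 9 the mutant bars lie on one side of the empty vector bars; HisGTG6 did not pass the test.

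Of the 25 alanine AGC entries 4 rose. AlaAGC410 had 129 and 120 RPM in the mutant libraries, against 68.0 and 60.5 RPM in empty vector (log2 fold change 0.94, SE 0.16, limma adjusted p = 1.1e-06). AlaAGC259 had 1109 and 1297 RPM in the mutant libraries, against 774 and 690 RPM in empty vector (log2 fold change 0.71, SE 0.14, limma adjusted p = 1.6e-05), and AlaAGC181, named here as its near-identical partner, may hold the same reads. AlaAGC183 also rose (0.97), at 1.09 RPM in empty vector, but not without mutant library 1 (0.72, limma adjusted p = 0.16) or empty vector library 2 (0.73, limma adjusted p = 0.53). The AlaAGC sum had 24257 and 23823 RPM in the mutant libraries, against 22072 and 20457 RPM in empty vector, without overlap and without passing (log2 fold change 0.18, limma adjusted p = 0.61). None of the 10 AlaTGC and 8 AlaCGC entries was called.

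The 4 aspartate entries rose together. AspGTC42, which held 81.0% to 83.2% of the aspartate reads in each library, had 9734 and 7690 RPM in the mutant libraries, against 6044 and 5633 RPM in empty vector (log2 fold change 0.57, SE 0.16, limma adjusted p = 0.0095). Without mutant library 1 it stood at 0.40 and did not pass (limma adjusted p = 0.065), nor without empty vector library 1 (limma adjusted p = 0.24) or 2 (limma adjusted p = 0.62). AspGTC21 had 354 and 416 RPM in the mutant libraries, against 256 and 260 RPM in empty vector (log2 fold change 0.57, limma adjusted p = 0.0028), so here mutant library 2 was the higher one, and it lost its call without empty vector library 1 or 2 (limma adjusted p 0.15 and 0.14). AspGTC13 (0.52) and AspGTC23 (0.47) made up the 4. RefSeq lists 16 Asp-GTC genes.

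ArgCCT118 was the most abundant entry that rose, with 18334 and 18661 RPM in the mutant libraries, against 11434 and 13707 RPM in empty vector (log2 fold change 0.56, SE 0.19, limma adjusted p = 0.035). It made up 50.8% and 55.5% of ArgCCT reads in the mutant libraries, against 44.1% and 43.9% in empty vector, and the other 3 ArgCCT entries were not called. Its call was lost without empty vector library 1 (0.43, limma adjusted p = 0.78) and without empty vector library 2 (0.69, limma adjusted p = 0.64). GluTTC27 had 3382 and 2708 RPM in the mutant libraries, against 2367 and 2135 RPM in empty vector (log2 fold change 0.43, limma adjusted p = 0.035), and 2 of 3 GluTTC entries rose. The GluTTC27 call was lost without mutant library 1 (0.27, limma adjusted p = 0.31) and without empty vector library 1 or 2 (limma adjusted p 0.16 and 0.71).

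The smaller rises named by rule were those of ProAGG13, with 144 and 168 RPM in the mutant libraries, against 93.7 and 98.8 RPM in empty vector (log2 fold change 0.69), ThrAGT131 (0.68), CysGCA129 (0.67) and ThrAGT44 (0.63). ThrAGT131 had 48.6 and 42.9 RPM in the mutant libraries, against 29.1 and 27.2 RPM in empty vector. These 2 threonine entries are rare. ThrAGT42, the most abundant ThrAGT entry, had 12782 and 12465 RPM in the mutant libraries, against 16601 and 15315 RPM in empty vector. It was not called (log2 fold change −0.34, limma adjusted p = 0.36). Without mutant library 1 it stood at −0.36, in a fit where the empty vector pair alone gave the spread. CysGCA129 was the only CysGCA entry called, and lost its call without mutant library 2 (0.41, limma adjusted p = 0.29). Without empty vector library 1 or 2 none of these 4 passed (limma adjusted p 0.15 and 0.098 for ProAGG13, and 0.16 to 0.81 over the others).

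The entries that fell were GlyCCC5, SerTGA15 and ValCAC37. GlyCCC5 had 1460 and 1230 RPM in the mutant libraries, against 1967 and 1984 RPM in empty vector (log2 fold change −0.56, SE 0.14, limma adjusted p = 0.0022). It took 20.9% and 18.0% of GlyCCC reads in the mutant libraries, against 27.6% and 26.0% in empty vector, while the GlyCCC sum stood at −0.10. SerTGA15 had 2850 and 3328 RPM in the mutant libraries, against 4295 and 4199 RPM in empty vector (log2 fold change −0.46, SE 0.15, limma adjusted p = 0.028). ValCAC37 had 219 and 284 RPM in the mutant libraries, against 324 and 355 RPM in empty vector (log2 fold change −0.44, SE 0.14, limma adjusted p = 0.035). GlyCCC5 lost its call without mutant library 2 (−0.44, limma adjusted p = 0.091), and SerTGA15 (−0.35, limma adjusted p = 0.16) and ValCAC37 (−0.25, limma adjusted p = 0.31) without mutant library 1. All 3 lost it without empty vector library 1 or 2 (limma adjusted p 0.088 and 0.092 for GlyCCC5, 0.29 and 0.45 for SerTGA15, 0.23 and 0.73 for ValCAC37).

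Next on the lower side was HisGTG6, which held 69.5% of the HisGTG reads over the 4 libraries. It had 12418 and 10610 RPM in the mutant libraries, against 17088 and 15609 RPM in empty vector, without overlap (log2 fold change −0.51, SE 0.18, limma adjusted p = 0.057). It stood at −0.62 without mutant library 1 and −0.40 without mutant library 2, in fits where the empty vector pair alone gave the spread. HisGTG6 passed in the common fit (limma adjusted p = 0.0067), with near-identical entries merged (limma adjusted p = 0.025) and among entries averaging 10 RPM or more (limma adjusted p = 0.049). HisGTG20 stood at −0.31 and HisGTG9 at 0.01, and AsnGTT569 at −0.35 (limma adjusted p = 0.15).

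**Figure D4:**
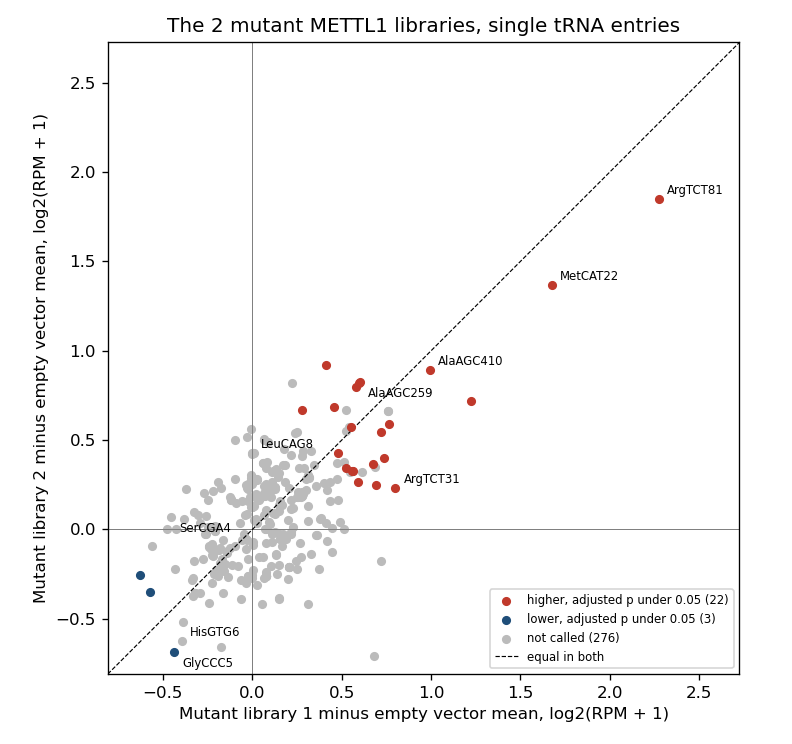
Each of 301 tRNA entries by its log2(RPM + 1) minus the empty vector mean, in mutant library 1 (x axis) and mutant library 2 (y axis); red entries rose, blue entries fell (limma adjusted p under 0.05) and the dashed line marks equal values. ArgTCT81 and MetCAT22 lie far from the other entries, at mean log2 fold changes of 2.06 and 1.52.

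Of the 22 entries that rose, ArgTCT81, MetCAT22, AlaAGC410 and AlaAGC259 were those named by rule whose call held without each of the 4 libraries in turn. Without empty vector library 1 or 2 the count fell to 6 higher and 0 lower each, where 32 or 21 higher and 3 lower had an unadjusted limma p under 0.05. When each entry was tested on its own spread, 0 passed, with 19 higher and 10 lower at an unadjusted p under 0.05 (limma adjusted p = 0.45 for ArgTCT81), so all 25 calls rest on the spread shared between entries.

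The called entries were set against abundance. Of 167 entries with a mean under 1000 RPM, 17 rose and 1 fell, with a median log2 fold change of 0.15. Of 134 entries at or above 1000 RPM, 5 rose and 2 fell, with a median of 0.02. In finer classes 1 of 58 entries under 10 RPM rose (1.72%) and 5 of 46 from 10 to 100 RPM (10.9%). From 100 to 1000 RPM 11 of 63 rose (17.5%), from 1000 to 10000 RPM 4 of 104 (3.85%) and above that 1 of 30 (3.33%). Over all 301 entries 7.31% rose. The median was 0.09 over all 301 entries and 0.01 over the 54 anticodon sums. Between these abundance classes no test was run.

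The m7G list holds 20 anticodons with 176 entries that background knowledge gives as carrying the modification. Of its entries 11 rose (6.25%) and 1 fell, at a median log2 fold change of 0.08, beside 7.31% and 0.09 over all entries. The no-m7G list of 26 anticodons with 105 entries had 8 higher (7.62%) and 2 lower, at a median of 0.10. The shares that rose were near that of all entries in both lists.

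The m7G list took 54.4% and 48.7% of RPM in the mutant libraries, against 52.4% and 53.8% in empty vector, so the groups overlapped. The 43 leucine, serine and selenocysteine entries, whose tRNAs have a long variable arm, belong to the no-m7G list. Of them 0 rose (0%) and 1 fell (2.33%), at a median of 0.14, beside 7.31% and 0.997% over all 301 entries. These 43 took 15.7% and 19.6% of RPM in the mutant libraries, against 17.2% and 16.0% in empty vector. A further 20 entries of 8 anticodons on neither list had 3 higher (15%) and 0 lower. Entries were also sorted by the first base of the anticodon, which pairs with the third codon base. For A 7 of 64 rose (10.9%) and for C 6 of 103 (5.83%). For G 5 of 73 rose (6.85%) and for T 4 of 61 (6.56%). The share over all 301 entries was 7.31%, and no test was run between these lists.

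Anticodon sums were also tested for mutant against wild-type METTL1, each with WDR4, to see where the constructs differed. HisGTG was lower in mutant cells, with 17774 and 16160 RPM in the mutant libraries, against 23599 and 24905 RPM in wild-type METTL1 libraries (log2 difference −0.52 ± 0.13 SE, limma adjusted p = 0.0023). The rare HisATG entry was lower too, with 30.7 and 27.2 RPM in the mutant libraries, against 42.6 and 54.1 RPM with wild-type METTL1 (log2 difference −0.71, limma adjusted p = 1.3e-05). SupTTA, a suppressor-type entry, was higher at 4.47 and 5.08 RPM in the mutant libraries, against 2.76 and 2.24 RPM with wild-type METTL1 (log2 difference 0.73, limma adjusted p = 1.3e-05). Empty vector had 3.62 and 4.62 RPM of it, and the mutant was not called against empty vector (log2 fold change 0.18, limma adjusted p = 0.61).

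With ProGGG, at under 2 RPM in these libraries, the counts were 1 of 54 anticodons higher (1.85%) and 3 lower (5.56%), with 14 at an unadjusted limma p under 0.05 (25.9%). Without wild-type METTL1 library 2 none passed (HisGTG −0.48, limma adjusted p = 0.27; HisATG −0.54, 0.17; SupTTA 0.62, 0.11), with 1 higher and 4 lower at an unadjusted limma p under 0.05, and without wild-type METTL1 library 1 HisGTG did not pass (−0.56, limma adjusted p = 0.079). AspGTC, which rose against empty vector, had 11695 and 9484 RPM in the mutant libraries, beside 10281 and 11736 RPM with wild-type METTL1, and was not called between the constructs. SeCTCA, which also rose against empty vector, had 24.6 and 25.2 RPM in the mutant libraries, beside 32.1 and 29.6 RPM with wild-type METTL1. It was not called between the constructs either (log2 difference −0.30, limma adjusted p = 0.11).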

How the data were processed

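Relative tRNA abundance was analysed in 2 input libraries each of mutant METTL1 with WDR4, wild-type METTL1 with WDR4 and empty vector. The wild-type METTL1 libraries were compared with the mutant as anticodon sums only. They also entered the gaps between replicate libraries and the common fits of 6 libraries. The build mm10 and the tools bedtools, Bowtie and Trim Galore, without versions, are named per the submitters' processing notes, and no source says how a read that fits several entries was counted. For each library the authors deposited RPM, reads per 1000000 reads over tRNA entries, and their fold changes and p-values were not used. Within 0.01 reads, all RPM values divide by that of 1 read, which gives the totals printed; counting 1 read in several entries would make them too high.

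RPM was summed per anticodon and amino acid, transformed as log2(RPM + 1) and modelled with limma 3.58.1 (R 4.3.3) over the 4 libraries of a comparison, with a variance trend for entries and none for sums. Values were adjusted by the Benjamini-Hochberg (BH) method over all features of a level, and an adjusted p under 0.05 was called. The fits were tested on simulated data whose spread was set by the mean alone and was equal in both groups. Neither a wider mutant pair nor a spread particular to a feature was simulated. The members, lists and tests were chosen with earlier results of these data known. Entries named are the 10 largest rises and falls past the threshold (at most 3 per anticodon; with under 5, those with the smallest p up to 5), all ArgTCT entries, and the most abundant entry of each named anticodon; sums named are those called, the 5 (amino acids: 3) largest and smallest, and the 5 largest gains and losses in RPM. Other names were chosen after their values were seen. RefSeq tables of GRCm38.p6 gave gene positions.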

Additional observations from a re-analysis of the deposited data

How the results depend on the processing

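Over the 63 named features and 878 alternative values, 729 kept their direction and their side of the threshold, 114 lost a call, 24 gained one and 11 changed sign. Only a feature called in the fit reported could lose a call, and many of the 63 were not called there. The 114 are therefore not to be read against all 878. For instance, the AspGTC sum lost its call in 7 of 14 alternatives, CysGCA129 in 9 of 15 and ArgTCT81 in 1 of 15. Entries gave 22 higher and 3 lower in the fit reported. The counts were 13 higher with libraries centred on the median of all entries, 7 and 1 with centring on the no-m7G list, 1 lower without the variance trend, and 5 lower in the common fit of 6 libraries. With each feature's own spread, an alternative added after the data were seen, 0 entries, 0 anticodons and 0 amino acids passed in either direction (unadjusted p under 0.05: 29 entries, 6 anticodons and 2 amino acids). Leaving out 1 library in turn gave 6 to 25 entries higher and 0 to 5 lower, 0 to 1 anticodons in each direction, and 0 to 4 amino acids higher and 0 to 2 lower. Against wild type it gave 0 to 4 anticodons higher and 0 to 12 lower. The 4 and the 12 came from fits without a mutant library, where the wild-type pair gave the spread.

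Against 2 anticodons higher and 0 lower, 0 were higher with a pseudocount of 10 or with centring, 4 were higher with the mean of the entries' log2 values, and 1 was lower with a pseudocount of 0.1 (CysACA), a variance trend or the common fit (HisGTG in both). The 2 higher with a pseudocount of 0.1 did not include AspGTC, and AlaGGC was called in that setting. Against 2 amino acids higher and 1 lower, centring gave 0 and 0, and the common fit 2 lower. For mutant against wild type a pseudocount of 10 gave 0 higher and 0 lower (unadjusted limma p under 0.05: 2 and 11). The cause was not tested. The sign changes were those of ArgTCT126 (−0.0080 with centring on the no-m7G list, and −0.14 to 0.33 with 1 library left out, negative without mutant library 1 or empty vector library 1), GlnCTG7 (−0.019 and −0.077 under the 2 centrings, −0.12 to 0.17 with 1 library left out), GlnTTG (−0.0023 to 0.28 with 1 library left out), GlnCTG (−0.042 to 0.23), AlaCGC (−0.27 to 0.022) and AlaTGC (−0.26 to 0.038), these 5 without mutant library 2, and SerGCT (0.12) with the mean of log2 values; none was called. The median gap between mutant libraries stayed between 0.15 and 0.22.

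Replicate number as a block gave 12 entries higher and 1 lower, and the anticodon and amino acid counts did not change. Deviations of same-numbered libraries correlated at −0.12 over entries, and the block with crossed numbers, added after this was seen, gave 18 higher and 4 lower. The count tests planned on reads read back from RPM were not run, since the unit is RPM and not counts.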
